A study of Danio rerio with 12 samples.

Results

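Of the genes on the Affymetrix Zebrafish Genome Array, those of the solute carrier (slc) superfamily are described here, in zebrafish embryos of the late blastula exposed to ethanol and in their untreated counterparts. The members are all probe sets whose single gene symbol begins with slc and a digit, with *slc16a9a* and *slc16a9b* left out. The array annotation holds 135 such genes on 156 probe sets. A gene was tested when its mean signal was at least 50 with ethanol or in control, and it was then represented by its probe set of highest mean signal, which left 86 genes. Among them, 79 reached the minimum in both treatments, 4 with ethanol alone and 3 in control alone. The 86 genes make up 86 of the 9767 probe sets tested, out of 15617 on the array. Embryos of the ABTL strain were used throughout, as pools of 20. In the ethanol pools, 100 mM ethanol was added to the embryo medium at 2 hours postfertilization (hpf), and the control pools stayed in plain medium. RNA of both was taken at 4.5 hpf, from 6 independent experiments, each with 1 pool of either treatment and 1 array for each pool.

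Solute carriers are membrane proteins that move small molecules across the plasma membrane and the membranes of organelles. Unlike ABC transporters, they do not hydrolyse ATP, and work as exchangers, cotransporters driven by ion gradients, or facilitators. They are numbered by sequence family, and most families share a class of substrate. Thus slc1, slc7 and slc38 carry mainly amino acids, slc2 sugars, slc30 and slc39 zinc and other metals, and slc25 the metabolites that cross the inner membrane of the mitochondrion. The early fish embryo lives on its yolk and on maternal stores, and its own genome becomes active during the blastula period. A level at 4.5 hpf can therefore be maternal or zygotic RNA, which these arrays do not separate. Moreover, in whole embryos a change in the share of cells that express a gene and a change in RNA per cell cannot be told apart. The members *slc7a6os* and *slc4a1ap* fall under the rule by name only, since both are named after a carrier gene and are not known as carriers. Their log2 fold changes were -0.21 (adjusted p = 0.318) and 0.75 (adjusted p = 0.396), and without them 84 genes were tested, with the same 9 called.

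The values are MAS5 signals, the background-corrected intensity of a probe set on a linear scale, scaled by the authors to a common level on each array. The median signal of an array over all probe sets was 98.6 to 106.6 with ethanol and 91.6 to 102 in control. The 7 blastula markers tested, among them *nanog* and *pou5f3*, all reached the signal minimum, with summed signals of 57006 to 67590.2 with ethanol and 54659.5 to 65384 in control. The erythroid genes *alas2* and *gata1a*, which a blastula should lack, had mean signals of 26 and 24 with ethanol, and of 21 and 27.1 in control. Of 4 muscle genes, which it should also lack, *myl1* lay under the minimum (7.41 with ethanol and 5.66 in control). The other 3 passed it, namely *tnnt3a* (172 and 190), *actc1b* (98.2 and 112) and *ckma* (77.0 and 60.2). A signal above the minimum is therefore no proof of expression. Marker lists of other cells and of maternal RNA were counted by the call rule given below. Under it, 3.78% of all tested probe sets were higher and 1.62% lower. Of 7 yolk syncytial layer markers, 0 were called higher and 3 lower, at a median log2 fold change of -0.38, and their summed signal was 6445 to 7764 with ethanol and 8272 to 11664 in control, with no overlap. Most of this sum came from *apoc1*, with a mean of 3962 with ethanol and 6317 in control. Of all single probe sets tested, 0.154% had all ethanol arrays below all control arrays. The marker *mxtx2* went the other way (0.18, higher in 5 of 6 experiments, not called). A further pair of such markers, *apoa4b.1* and *apobb.1*, lay under the signal minimum. Of 8 enveloping layer markers, 0 were called higher and 1 lower (median -0.21, summed signal 37386 to 49403 with ethanol and 40005 to 57685 in control). Of 11 maternal transcripts, 1 was called higher and 0 lower (median 0.21, summed signal 29081 to 44007 with ethanol and 24997 to 39212 in control). A single call in a list of 8 or 11 genes is no sign of a difference between treatments. The part of these lists in the results on carriers was not tested.

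With ethanol, 9 of the 86 solute carrier genes were higher and 0 were lower. The 9 are the amino acid transporter genes *slc1a4* and *slc7a3a*, the mitochondrial carrier genes *slc25a1a* and *slc25a44b*, the nucleotide sugar family genes *slc35e1* and *slc35h1*, the ion exchanger genes *slc9a7* and *slc26a5*, and *slc49a4*. Of these, 8 rose between 1.25-fold and 1.42-fold. For *slc1a4*, one of the 4 genes that passed through ethanol alone, the mean signal was 73.0 with ethanol and 28.0 in control, where the control value lay at the level of the erythroid genes, so that no exact fold is given. A gene was called at a Benjamini-Hochberg adjusted p under 0.15 over all 9767 probe sets (limma with treatment and experiment as factors), an unadjusted p under 0.03 and a fold of at least 1.25 in either direction, after the thresholds of the methods. In the same fit, 3.78% of all tested probe sets were called higher and 1.62% lower, against 10.5% and 0% of the carriers. The sets are unlike, since carriers are named genes at their brightest probe set. The 9767 also hold dimmer probe sets of the same genes and ones without a symbol. Among the 79 carriers at the minimum in both treatments, 8 were higher and 0 lower (10.1% and 0%, against 3.71% and 1.46% of all probe sets at the minimum in both). Each of the 9 was higher in 6 of 6 experiments (exact two-sided permutation over the signs of the pairs, p = 0.03125 for each, the smallest that 6 pairs allow). The paired fit had called them from the same ratios, so this is no separate support. At an unadjusted p under 0.05, 19 carriers were higher and 7 lower (22.1% and 8.14%), against 12.8% and 5.46% of all tested. The signal was higher in 6 of 6 experiments for 15 carriers (17.4%, against 8.14% of all probe sets) and lower in 6 of 6 for 1 (1.16%, against 3.84%). All ethanol arrays lay above all control arrays for 1 carrier, *slc25a1a* (1.16%, against 0.44% of all), and below them for 0 (against 0.154%).

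The median log2 fold change of the 86 carriers was 0.13, and that of all tested probe sets 0.05. By experiment, the carrier median was 0.21, 0.11, 0.17, 0.07, 0.17 and 0.04 in experiments 1 to 6, against 0.09, 0.03, 0.04, 0.04, 0.05 and 0.03 for all tested probe sets. Of the 86, 61 had a positive and 25 a negative log2 fold change (70.9% positive, against 59.7% of all tested probe sets). With arrays quantile normalized or centred on their medians, 53 were positive. The median of all tested probe sets was then 0.02 and -0.02, and their share of positive values is not given here. Over all 135 annotated genes, with no signal minimum, the median was 0.12. These shares are descriptions, since the genes were grouped with earlier results of these arrays known. They also rest on the fit and on the scaling. Any 1 experiment left out reduced the calls to 1 or 2 higher and 0 or 1 lower. Calls over all probe sets then also fell, to between 0.113% and 0.983% higher and between 0.102% and 0.502% lower. A version of the methods' model, which fitted each probe set alone and used Storey q, gave 11 higher and 2 lower (4.83% and 1.89% of all probe sets). It took experiment as a fixed factor, whereas the methods took it as a random effect. The other settings that gave lower calls (limma with a random block, a minimum of 100 and log2(signal + 50)) gave 9 to 11 higher and 2 to 4 lower. Over all probe sets, 4.43% to 7.61% were then called higher and 1.85% to 2.75% lower. At the minimum of 100, 4 of 68 carriers were lower, against 2.75% of all probe sets. The 0 lower of the main fit thus depends on the setting. Without the experiment term, 0 carriers were called by limma in either direction, where 0.0102% of all probe sets were called higher and 0.0% lower. When arrays were quantile normalized, 4 carriers were called higher and 0 lower, against 1.05% and 1.48% of all probe sets. The 4 were *slc1a4*, *slc25a1a*, *slc35e1* and *slc35h1*. With arrays centred on their medians, 2 were called higher (*slc1a4* and *slc35h1*) and 0 lower, against 0.614% and 1.23%. The carrier median was then 0.06, and that of all tested probe sets -0.02. The calls of *slc7a3a*, *slc25a44b*, *slc9a7*, *slc26a5* and *slc49a4* were thus lost under both scalings.

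**Figure D1:**
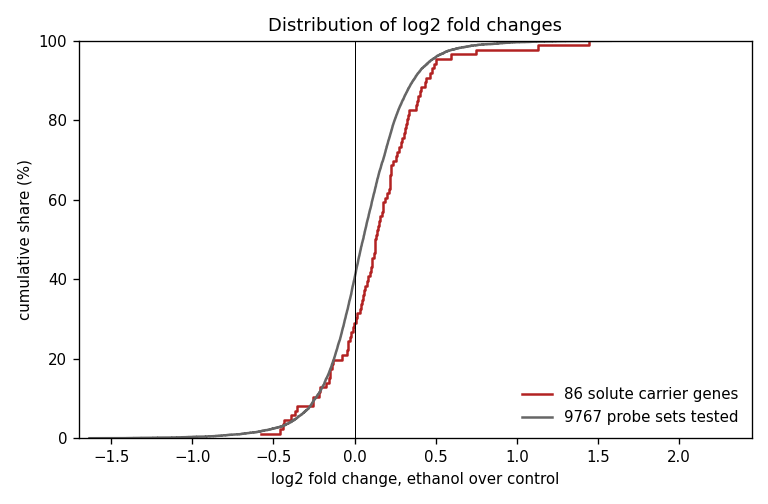
Cumulative share of genes (%, vertical axis) by log2 fold change of ethanol over control (horizontal axis), for the 86 solute carrier genes in red and all 9767 probe sets tested in grey. The red line lies to the right of the grey one over most of the range, with medians of 0.13 and 0.05.

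By substrate group, the 9 called genes were spread over 5 of 7 groups. Over all tested probe sets 3.78% were called higher, so that 0 calls in a group this small are no sign of a difference. Of 16 amino acid carriers 2 were called higher, of 18 mitochondrial carriers 2, of 13 inorganic ion carriers 2, of 8 nucleotide sugar family genes 2, of 14 other carriers 1, of 11 metal carriers 0 and of 6 sugar carriers 0. The group medians were 0.07, 0.12, 0.22, 0.01, 0.13, 0.18 and 0.20 in this order. The medians of the inorganic ion, metal, sugar, mitochondrial and other groups stayed above 0 under both scalings (0.16, 0.12, 0.17, 0.08 and 0.06 with quantile normalization, and 0.15, 0.11, 0.13, 0.05 and 0.06 with arrays centred on medians). Those of the amino acid and nucleotide sugar groups came to lie at or under it (-0.00 and -0.04 with the first scaling, 0.00 and -0.06 with the second). Differences between groups were not tested. The genes under the signal minimum were unevenly spread, since 16 of 25 annotated amino acid carriers, 18 of 25 mitochondrial, 13 of 26 inorganic ion, 8 of 8 nucleotide sugar family, 14 of 22 other, 11 of 14 metal, 6 of 14 sugar and 0 of 1 nucleoside carriers were tested. Among those not tested were the glucose transporter genes *slc2a2* and *slc2a3a*, the dopamine transporter gene *slc6a3*, the vesicular GABA transporter gene *slc32a1* and *slc40a1*, which encodes the iron exporter ferroportin.

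**Figure D2:**
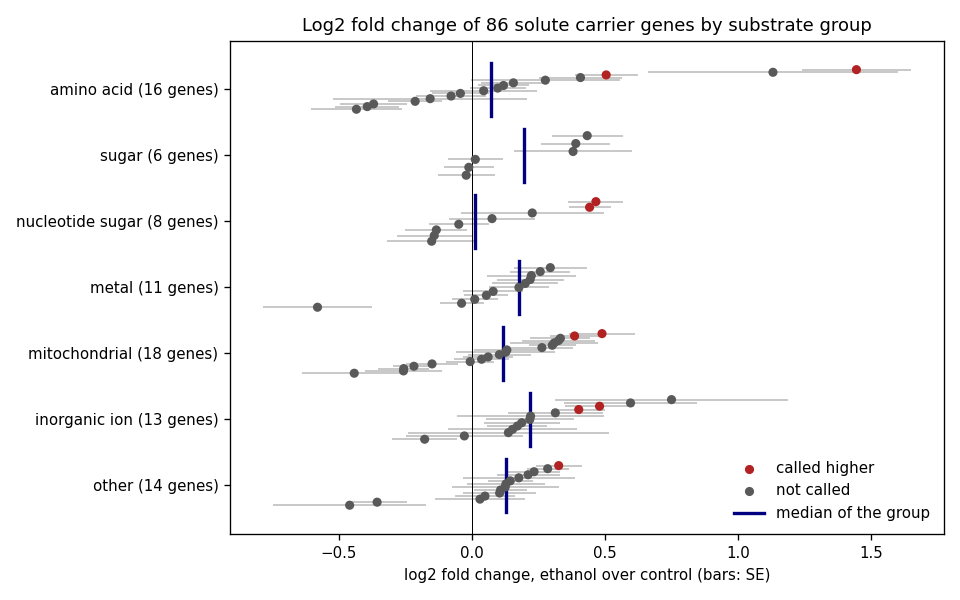
Log2 fold change of ethanol over control (horizontal axis) for each of the 86 genes by substrate group, with the standard error of the fit as grey bars, called genes in red and the group median as a blue line. Red points lie in 5 groups and all of them are to the right of 0, while the largest negative value, -0.58 for *slc39a5*, carries a wide error.

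Among the amino acid carriers, *slc1a4*, which encodes a transporter of alanine, serine and cysteine, passed the signal minimum only through its ethanol pools. Its signal was 102, 114, 30.0, 40.7, 47.2 and 105 in the ethanol pools of experiments 1 to 6, against 35.3, 46.7, 18.9, 15.3, 8.32 and 43.4 in the control pools. Pools 1, 2 and 6 were high and pools 3 to 5 low in both treatments, and the groups overlapped, but within each experiment the ethanol pool was higher. The fitted log2 fold change was 1.45 (adjusted p = 0.0494, SE 0.21), with log2 ratios of 1.53, 1.29, 0.67, 1.41, 2.50 and 1.27 in the 6 experiments. All 6 control signals lay under the minimum of 50, so that neither the size of this value nor its rank among the carriers can be read. It was 0.62 on the log2(signal + 50) scale. *slc1a4* was the only carrier that stayed called whichever experiment was left out (1.23 to 1.60, adjusted p from 0.0863 to 0.139). Since it entered the test through the treatment in which it was high, this is no separate support for its rise.

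The cationic amino acid transporter gene *slc7a3a*, whose product takes up arginine and lysine, was the other called member of this group. Its signal was 1103, 1554, 1099, 1136, 788 and 1328 with ethanol, against 966, 922, 629.5, 713, 575 and 1192 in control. The means were 1168 ± 257 with ethanol and 833 ± 235 in control (SD, n = 6 each). The groups overlapped, with the control pool of experiment 6 above 4 of the ethanol pools, and the ratio was above 1 in 6 of 6 experiments. On average over the pairs, its log2 fold change was 0.51 (adjusted p = 0.108, SE 0.12). The call was lost when any 1 experiment was left out (0.45 to 0.57, adjusted p from 0.152 to 0.224). The related *slc7a1b* showed a log2 fold change of 0.12 (adjusted p = 0.524) and *slc7a8a*, a light chain of the system L exchangers, one of -0.08 (adjusted p = 0.783).

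Genes for the heavy chain that carries the slc7 light chains to the cell surface had the lowest values of the amino acid group. *slc3a2b* gave 2466, 3369.7, 2573, 2719, 2348 and 2515 with ethanol, against 4359.6, 3361, 3678, 2945, 3236 and 3416 in control. It was lower in 5 of 6 experiments and equal to within 0.01 on the log2 scale in experiment 2, where the ethanol pool reached its highest value. In the paired fit it came to -0.39 (adjusted p = 0.167, SE 0.12, exact permutation p = 0.0625), which did not pass. It did pass as lower with experiment as a random block (adjusted p = 0.0831) and in the version of the methods' model (Storey q = 0.143). It also passed at a minimum of 100 (adjusted p = 0.0977) and on log2(signal + 50) (adjusted p = 0.0861). Its paralog *slc3a2a*, at signals of 35.3 to 59.0 with ethanol and 41.9 to 101 in control, had -0.43 (adjusted p = 0.245, SE 0.17). It was lower in 5 of 6 experiments and higher in experiment 5, without which it was -0.62 and passed (adjusted p = 0.130). A further 5 probe sets that list *slc3a2b* together with calmodulin genes were not used.

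Carriers of large neutral amino acids and of glutamine gave mixed values. The facilitators *slc43a1a* and *slc43a2b* had log2 fold changes of -0.04 (adjusted p = 0.865, SE 0.11) and -0.37 (adjusted p = 0.196, SE 0.12). The sodium-coupled transporter gene *slc38a2*, whose RNA is known in mammals to rise when amino acids are scarce, gave 852, 975, 344, 428, 341 and 746 with ethanol, against 527, 495, 368, 286, 273 and 758 in control. It was higher in 4 of 6 experiments, with the ethanol pools of 1, 2 and 6 and the control pool of 6 at the top (log2 fold change 0.41, adjusted p = 0.230, SE 0.15). For *slc38a6* the fitted log2 fold change was 1.13 (adjusted p = 0.259, SE 0.47). Its ethanol pools read 97.8 to 137. The control pool of experiment 2 read 8.94, whereas the other 5 control pools read 48.2 to 130.0. In other settings, *slc38a2* passed as higher at a minimum of 100 (adjusted p = 0.148) and on log2(signal + 50) (adjusted p = 0.138). *slc38a6* passed as higher on log2(signal + 50) (adjusted p = 0.102). *slc43a2b* passed as lower with experiment as a random block (adjusted p = 0.112) and at a minimum of 100 (adjusted p = 0.121). Values for *slc38a2* and *slc38a6* are given because of their size, after they had been seen.

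**Figure D3:**
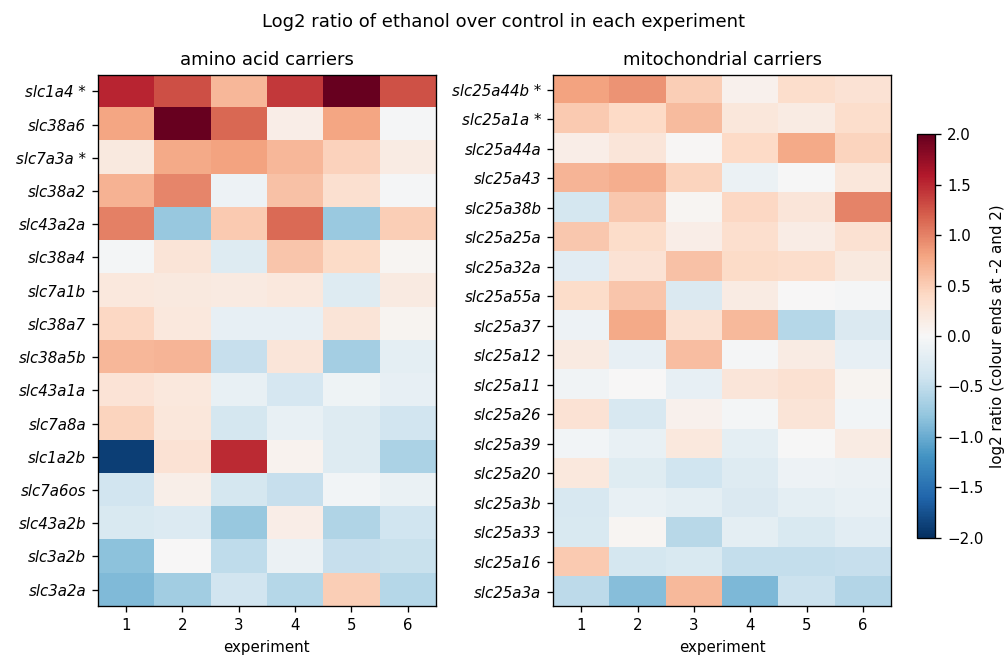
Log2 ratio of ethanol over control in each experiment (columns 1 to 6) for the 16 amino acid carriers (left) and 18 mitochondrial carriers (right), ordered by log2 fold change, with called genes starred and the colour scale ending at -2 and 2. The rows of *slc1a4*, *slc7a3a*, *slc25a44b* and *slc25a1a* are red in all 6 columns, while *slc1a2b* and *slc43a2a* change colour between experiments. The uncalled *slc25a44a* and *slc25a25a* also have ratios above 0 in all 6 columns.

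In the mitochondrial slc25 family, the called genes were *slc25a1a* and *slc25a44b*. *slc25a1a* encodes the citrate carrier, which exports citrate from the mitochondrion for the synthesis of fatty acids and sterols. Its signal was 3575, 3008, 2913, 2678, 2755 and 3341 with ethanol, against 2474, 2270.1, 1884, 2292, 2448 and 2605 in control. It was the only carrier whose groups did not overlap, with a lowest ethanol value of 2678 and a highest control value of 2605. This gave a log2 fold change of 0.39 (adjusted p = 0.117, SE 0.09), and the means were 3045 ± 348 with ethanol and 2329 ± 251 in control (SD, n = 6 each). Without 1 of the experiments it was 0.34 to 0.43 with an adjusted p from 0.186 to 0.234, above the threshold in every case.

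The paralogs *slc25a44a* and *slc25a44b* correspond to a gene whose product carries branched-chain amino acids into mitochondria in mammals. For *slc25a44b* the signal was 377, 432, 353, 329, 435 and 278 with ethanol, against 215, 232, 249.9, 308, 340.3 and 228 in control, and for *slc25a44a* it was 316, 386, 296, 329, 369.8 and 392 with ethanol, against 288, 327, 292, 249.6, 218 and 288 in control. Both were higher in 6 of 6 experiments. *slc25a44b* was called (log2 fold change 0.49, adjusted p = 0.127, SE 0.12), though not when any 1 experiment was left out (0.41 to 0.57, adjusted p from 0.183 to 0.236), and *slc25a44a* was not (0.33, adjusted p = 0.196, SE 0.11). *slc25a44a* was called with experiment as a random block (adjusted p = 0.112), in the version of the methods' model (Storey q = 0.1497) and at a minimum of 100 (adjusted p = 0.125). This does not show that they differ. The difference in log2 ratio, *slc25a44b* minus *slc25a44a*, was 0.16 (SD 0.50, n = 6, 95% interval -0.37 to 0.68, exact permutation p = 0.469), and it was the only pair of named paralogs compared. *slc25a44b* had its largest ratios in experiments 1 and 2 (0.81 and 0.90), and *slc25a44a* its largest in experiment 5 (0.76).

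The other 16 mitochondrial carriers did not pass. *slc25a25a*, which encodes a calcium-regulated carrier of ATP-Mg and phosphate, had the lowest adjusted p among them. It still missed the threshold of 0.15, and its fold, 1.23, was under the minimum. It was higher in 6 of 6 experiments, with means of 919 ± 325 with ethanol and 729 ± 195 in control (SD, n = 6 each), a log2 fold change of 0.30 (SE 0.09) and an adjusted p = 0.154. In contrast, both paralogs of the phosphate carrier, which supplies the ATP synthase, had negative values. *slc25a3b* was the only carrier lower in 6 of 6 experiments, at 5321, 5567, 5835, 5244, 6087 and 5414 with ethanol, against 6625, 6199, 6665, 6424, 6957 and 6019 in control. The highest ethanol value, 6087, lay above the lowest control value, 6019, and the ratios were even, from -0.32 to -0.15 (log2 fold change -0.22, adjusted p = 0.214, SE 0.08). *slc25a3a* was lower in 5 of 6, with -0.44 (adjusted p = 0.283, SE 0.20). The pyrimidine nucleotide carrier gene *slc25a33* had -0.26 (adjusted p = 0.230, SE 0.10), and *slc25a20*, for the carnitine shuttle of fatty acids, -0.15 (adjusted p = 0.449). The glutamate and aspartate carrier gene *slc25a12* had 0.10 (adjusted p = 0.672), and *slc25a55a*, with means of 5048 ± 818 with ethanol and 4626 ± 933 in control (SD, n = 6 each), had 0.13 (adjusted p = 0.586).

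All 8 slc35 genes on the array were tested. This family resides mostly in the Golgi and endoplasmic reticulum, where it supplies nucleotide sugars for glycosylation, and 2 members rose. The signal of *slc35h1* (*slc35c2* in older annotation) was 268, 231, 355, 337, 422 and 689 with ethanol, against 191, 173, 245, 266, 293 and 538 in control. The level differed between experiments, with pools 6 highest and pools 1 and 2 lowest in both treatments, so that the groups overlapped widely. Even so, the ratio was similar in every experiment, 0.49, 0.41, 0.53, 0.34, 0.52 and 0.36 on the log2 scale. Relative to control, the log2 change was 0.44 (adjusted p = 0.0801, SE 0.08), and apart from *slc1a4* it had the smallest adjusted p of the carriers. It was 0.42 to 0.46 with 1 experiment left out, where the adjusted p of 0.144 to 0.191 passed only without experiment 6. The call was also lost with experiment as a random block (adjusted p = 0.220).

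*slc35e1* behaved likewise. It gave 770.0, 795, 701, 642, 731 and 1296 with ethanol, against 524, 479, 472, 568, 498 and 1118 in control, again with both pools of experiment 6 far above the others. In the fit, the rise on the log2 scale was 0.47 (adjusted p = 0.103, SE 0.10), and 0.41 to 0.52 with 1 experiment left out, where the adjusted p of 0.153 to 0.214 never passed. The other 6 members lay between -0.15 and 0.23 and did not pass. Among them, *slc35f6* had means of 2397 ± 199 with ethanol and 2684 ± 672 in control (SD, n = 6 each) and a log2 fold change of -0.13 (adjusted p = 0.564).

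**Figure D4:**
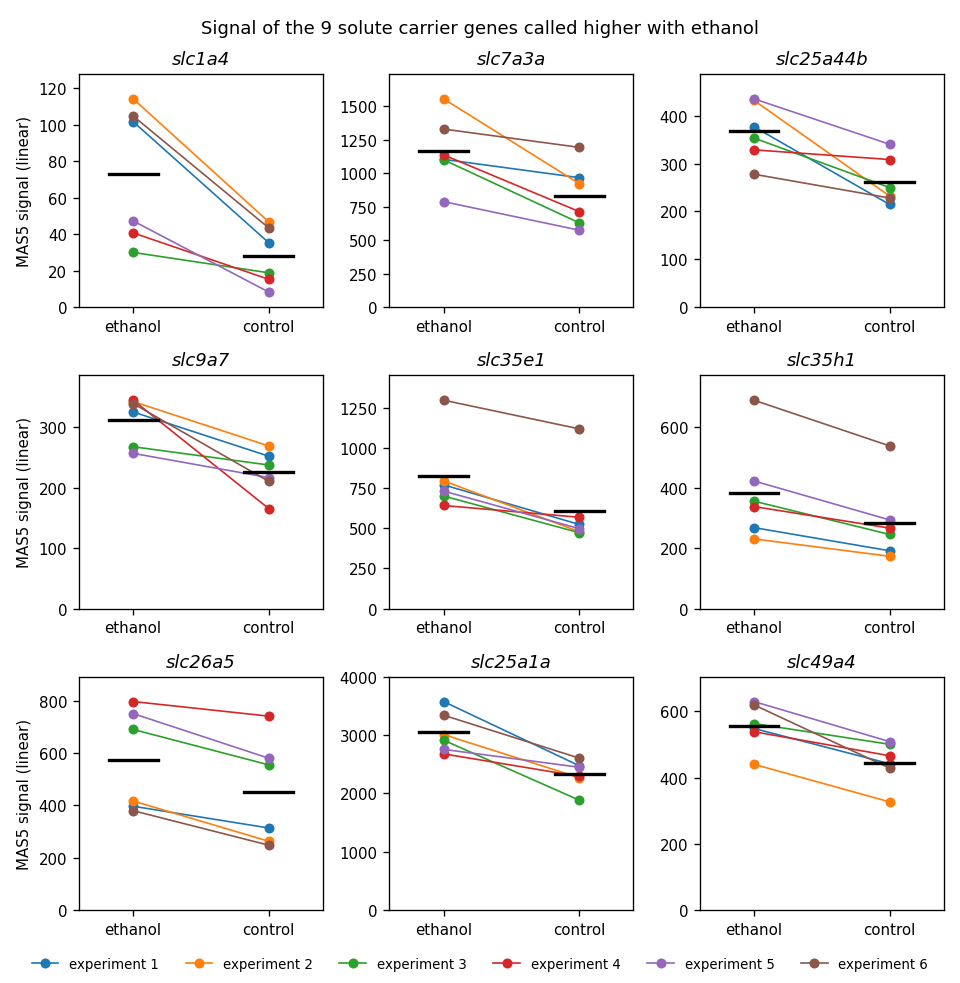
MAS5 signal on a linear scale (vertical axis, from 0) of the 9 called genes in ethanol (left) and control (right) pools, with the 2 pools of an experiment joined by a coloured line and the mean of the 6 pools as a black bar. Every line falls towards control, and *slc1a4* lies under 50 on every control array, although the groups are separate only for *slc25a1a*, and experiment 6 stands above the rest for *slc35e1* and *slc35h1*.

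Of 13 inorganic ion carriers, 2 rose and 11 did not pass. *slc9a7*, for a sodium and proton exchanger known in mammals from the trans-Golgi network, gave 325, 343, 268, 345, 257 and 339 with ethanol, against 252, 269, 238, 166, 217 and 211 in control. Only the control pool of experiment 2 lay above any ethanol pool, and only above those of experiments 3 and 5. On the log2 scale the fitted rise was 0.48 (adjusted p = 0.142, SE 0.13). Its ratio in experiment 4, 1.06, was the largest, and the log2 fold change was 0.36 without that experiment. *slc26a5*, which encodes prestin, the motor protein of outer hair cells in the mammalian ear, gave 397, 417, 691, 797, 751 and 379.9 with ethanol, against 314, 263, 555, 741, 580.4 and 248 in control. Pools of experiments 3 to 5 were high and those of 1, 2 and 6 low in both treatments, an ordering opposite to that of *slc1a4*. The fitted log2 change was 0.40 (adjusted p = 0.121, SE 0.10). Both calls were lost when any 1 experiment was left out (adjusted p from 0.213 to 0.234 for *slc9a7* and from 0.184 to 0.226 for *slc26a5*). That of *slc26a5* was also lost with experiment as a random block (adjusted p = 0.282). The sodium-dependent phosphate transporter gene *slc20a1b* had 0.17 (adjusted p = 0.441, SE 0.11).

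Among the remaining families, *slc49a4* was called. Its signal was 548, 440.0, 563, 538, 629.6 and 619.6 with ethanol, against 442, 327, 500.5, 466, 509 and 429 in control, with overlapping groups and higher values in 6 of 6 experiments. This gave a rise on the log2 scale of 0.33 (adjusted p = 0.130, SE 0.09), a fold of 1.254 that lies just above the minimum of 1.25. The call was lost without any 1 experiment (0.29 to 0.36, adjusted p from 0.215 to 0.244). The log2 fold change was 0.24 with quantile normalization, 0.26 with arrays centred on medians and 0.30 on log2(signal + 50). Each of these lay under the minimum fold. In contrast, *slc27a6*, of the fatty acid transport proteins, had an adjusted p of 0.143 in limma but too small a fold, 1.22, to be called. It was higher in 6 of 6 experiments, with means of 565 ± 101 with ethanol and 464 ± 82.7 in control (SD, n = 6 each). The lactate exporter gene *slc16a3b* was also higher in 6 of 6, with means of 6057 ± 889 with ethanol and 5166 ± 867 in control (SD, n = 6 each) and a log2 fold change of 0.23 (adjusted p = 0.259, SE 0.10). The urea transporter gene *slc14a2* was lower in 5 of 6 (-0.36, adjusted p = 0.173, SE 0.11). *slc10a7* had 0.21 (adjusted p = 0.379, SE 0.12).

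None of the 6 sugar carriers was called in the main fit. At an unadjusted p under 0.05 in limma 2 were higher, against 12.8% of all tested probe sets. Positive values were seen for 4 (3 with either other scaling), against 59.7% of all tested probe sets in the main fit. *slc2a15b*, a glucose transporter family gene of fish, was higher in 6 of 6 experiments, at 85.5, 75.7, 90.0, 105, 91.4 and 95.6 with ethanol, against 70.5, 68.2, 50.5, 60.6, 62.4 and 95.6 in control. In experiment 6 the pools were almost equal. Its log2 fold change of 0.43 (adjusted p = 0.167, SE 0.13) did not pass. It did pass with experiment as a random block (adjusted p = 0.0897) and in the version of the methods' model (Storey q = 0.1497). The intracellular glucose transporter gene *slc2a8* and the sugar phosphate exchanger gene *slc37a2* had values near 0, 0.01 (adjusted p = 0.957, SE 0.10) and -0.01 (adjusted p = 0.964, SE 0.09). *slc5a6b*, placed here by its family number although its product carries vitamins, had 0.39 (adjusted p = 0.187, SE 0.13). At a minimum of 100 it passed as higher (adjusted p = 0.113).

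None of the 11 metal carriers was called in the main fit either. At an unadjusted p under 0.05 in limma 0 were higher and 1 was lower (against 12.8% and 5.46% of all tested probe sets). Apart from *slc39a5*, they lay between -0.04 and 0.30. The copper importer gene *slc31a1* gave means of 1867 ± 289 with ethanol and 1648 ± 230.0 in control (SD, n = 6 each), at a log2 fold change of 0.18 (adjusted p = 0.422, SE 0.11). For *slc39a7*, which encodes a zinc transporter of the endoplasmic reticulum, the means were 1713 ± 132 with ethanol and 1646 ± 83.0 in control (SD, n = 6 each) and the log2 fold change 0.06 (adjusted p = 0.758, SE 0.08). *slc39a5*, for a zinc importer of polarized epithelia, had the lowest value of all 86 genes, -0.58 (adjusted p = 0.211, SE 0.21). Its signal was 281, 435, 187, 133, 133 and 87.4 with ethanol, against 572, 323, 251, 209, 189 and 216 in control. It was lower in 5 of 6 experiments and higher in experiment 2, and without that experiment it was -0.78 and just passed the test (adjusted p = 0.1498). With all experiments, it passed as lower at a minimum of 100 (adjusted p = 0.124) and on log2(signal + 50) (adjusted p = 0.120).

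Spread between pools was wide for some members. Over the 86 genes, the highest of the 6 signals was 1.16 to 11.6 times the lowest with ethanol (median 1.70, and 1.70 over all tested probe sets) and 1.14 to 14.5 times in control (median 1.87, and 1.84 over all). The widest were *slc1a2b* with ethanol and *slc38a6* in control. The members closest to the signal minimum were *slc4a2a* (47.0 with ethanol and 50.2 in control), *slc22a2* (39 and 52.7) and *slc9a8* (55.1 and 42.3) just inside it, and *slc30a1a* (45.7 and 48.2), *slc25a14* (44.2 and 38.3) and *slc25a4* (43.9 and 29.2) just outside. The first 3 had log2 fold changes of 0.14, -0.46 and 0.60 with standard errors of 0.38, 0.29 and 0.25, and did not pass.

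For 9 genes a second probe set was tested, and 7 of these had the sign of the brighter one. 0 of the 9 was called, and none belongs to a called gene. *slc39a9*, for example, had 0.31 (adjusted p = 0.214, SE 0.11) on the second probe set and 0.30 on the first, and *slc7a8a* had -0.21 and -0.08. The signs differed for *slc25a11* (-0.05 and 0.06) and *slc25a39* (0.13 and -0.01). A further probe set of *slc49a4*, at a mean signal of 20.3 with ethanol and 26.1 in control, was under the minimum. The rises of the 9 called genes therefore each rest on 1 probe set.

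Other membrane transport genes were counted in the same way. Of 22 tested ABC transporter, organic anion transporter, ion pump, aquaporin and potassium channel genes, 1 was higher and 1 lower (4.55% each, against 3.78% and 1.62% of all probe sets). *atp2a2a*, for a calcium pump of the endoplasmic reticulum, showed a log2 fold change of 0.60 (adjusted p = 0.108, SE 0.14, higher in 6 of 6 experiments). The aquaporin gene *aqp8a.1* had -0.79 (adjusted p = 0.126, SE 0.20, lower in 6 of 6), with a mean signal of 33.9 with ethanol, under the minimum, and 52.9 in control. As a whole, this list had a median of 0.06 (-0.01 with arrays centred on medians). Of 13 genes of amino acid synthesis and of the response to amino acid shortage, 2 were higher, 0 lower and 11 not called (15.4% and 0%, against 3.78% and 1.62%), and under either other scaling 1 was higher. The 2 were *cebpg*, for a C/EBP transcription factor, at 0.50 (adjusted p = 0.0718, SE 0.09), and *chac1*, whose enzyme degrades glutathione, at 0.40 (adjusted p = 0.148, SE 0.11), each higher in 6 of 6 experiments. The asparagine synthetase gene *asns* (0.06), the serine synthesis genes *phgdh* (0.03) and *psat1* (0.07) and the *atf4a* and *atf4b* genes for the transcription factor of this response (-0.07 and 0.22) did not pass. Another C/EBP gene, *cebpb*, was lower in 6 of 6 experiments (-0.18, adjusted p = 0.330, SE 0.09) and did not pass either. Of the 13, 9 had positive values (69.2%, against 59.7% of all tested probe sets). The median of these 13 genes was 0.07 (-0.00 with arrays centred on medians).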

How the data were processed

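RNA of 12 embryo pools (6 ethanol, 6 control) was measured on 1-colour Affymetrix arrays. From the scans the authors computed MAS5 signals (Expression Console, version not given in the sources used here) and deposited each intensity on a linear scale, scaled to a common target. The 2% trimmed mean was 500.1 on every array, which is not the scaling target that the methods name, so that all signals and the minimum of 50 are on the deposited scale. Ratios do not depend on it. Detection calls were not used, so that the minimum of 50 on mean signal stands in for the Present filter of the methods. Precision is limited by how many arrays there are.

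Of 15617 probe sets, 10802 have 1 gene symbol in the platform annotation, 135 several and 4680 none. All 156 member probe sets kept their symbol in the RefSeq gene table. Left out were 115 Affymetrix control probe sets and 5735 under the minimum. The log2 signals of the other 9767 were fitted in limma 3.58.1 (R 4.3.3) with treatment and experiment as factors. This step was also run on simulated arrays. The changes simulated were larger than the rises of most called genes, so that the run does not bear on calls of their size. Same-numbered arrays were taken as pairs, because the methods fit experiment and, in every pair, deviations from the treatment means correlated (0.37 to 0.67). In 3 of the 6 pairs the control array was nevertheless closer to another ethanol array. Without this pairing, 0 carriers were called. Python 3.11.15 served for the exact tests and tables (numpy 2.4.6, pandas 2.3.3), the interval of the paralog difference (scipy 1.17.1) and plots (matplotlib 3.10.9).

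The members, substrate groups and lists were chosen with earlier results of these data known. Named genes are those called, the 2 of highest signal and up to 2 uncalled ones of largest even change in each group, members at the minimum, paralogs of called genes and called genes of the lists. Genes outside this rule, such as *slc38a2*, *slc39a5*, *slc3a2a*, *slc43a2b*, *slc14a2*, *slc25a33*, *slc25a3a* and *slc5a6b*, were chosen once their values had been seen. The alternatives concerned the experiment term, the thresholds, the signal minimum, the scaling of arrays, an offset on the signal, the choice of probe set and each experiment left out. Promoter and protein sequences were not analysed here.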

Additional observations from a re-analysis of the deposited data

Results flagged for a closer look

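Among 84 sets of 6 values (ethanol signals, control signals and log2 ratios of 28 named carriers), 4 held 1 value far from the other 5 by Dixon's criterion, which chance alone meets in about 1 of 20 sets. In experiment 6, *slc35e1* had an ethanol signal of 1296, where the other ethanol pools had 642 to 795, and a control signal of 1118, where the others had 472 to 568. The control signal of *slc35h1* in experiment 6 was 538, and 173 to 293 in the other experiments. The ethanol signal of *slc3a2b* in experiment 2 was 3369.7, and 2348 to 2719 in the others.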

How the results depend on the processing

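The 9 higher and 0 lower carriers of the paired fit became 0 and 0 without the replicate block, where 1 of 9767 probe sets was called in all. They also became 0 and 0 with no signal minimum, where 2 of 15502 were called. With experiment as a random block they were 9 and 2, with *slc35h1* and *slc26a5* lost and *slc25a44a* and *slc2a15b* gained (4.43% and 1.85% of all probe sets). The version of the methods' model, with experiment as a fixed factor and Storey q, gave 11 and 2 (4.83% and 1.89%). At a signal minimum of 100 they were 11 and 4 of 68 (7.61% and 2.75%), and on log2(signal + 50) 10 and 3 (5.12% and 2.31%). The lower ones were drawn from *slc3a2b*, *slc43a2b*, *slc14a2* and *slc39a5*. With an adjusted p under 0.05, 1 higher carrier (*slc1a4*) and 0 lower were left (0.164% and 0.174% of all probe sets). Quantile normalization over all probe sets gave 4 and 0. Median centring gave 2 and 0, and a median log2 fold change of 0.061 over the solute carrier genes, against -0.02 over all tested probe sets. Of all calls, 70.0% were higher, against 41.5% and 33.3% under these scalings. A minimum over all 12 arrays gave 9 and 0 (4.09% and 1.67% of all probe sets). Averaging the probe sets of a gene also gave 9 and 0 (4.67% and 1.9%). Leaving out 1 experiment gave 1 to 2 higher, 0 to 1 lower and medians of 0.11 to 0.16, on 5 pairs. Over all probe sets, 0.113% to 0.983% were then higher and 0.102% to 0.502% lower. The cause of the other changes was not tested. No called carrier turned its direction under these alternatives. Many of them could not turn it, since a change of fit, threshold or signal minimum leaves the log2 fold change as it was. Averaging left it too, since no called gene has another tested probe set. Only the scalings, the offset and the experiments left out could have turned it. Apart from experiments left out, each of the 9 kept its call under 5 to 8 of 10 or 11 alternatives. Several of these refit the same values, so that this count is no measure of support. Signals near the minimum of 50, as for *slc1a4*, limit the size of a fold.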
